A study of Bos taurus with 20 samples.

Results

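The nuclear-encoded subunits of oxidative phosphorylation and their relatives were represented by 83 probe sets of the 26773 on the array. Members were probe sets annotated to a single gene symbol that starts with NDUFA, NDUFB, NDUFC, NDUFS, NDUFV, UQCR, COX4, COX5, COX6, COX7, COX8 or ATP5. They comprised 43 probe sets for complex I, 7 for complex III, 15 for complex IV and 18 for complex V, and stood for 82 genes, because *ATP5F1E* had 2 probe sets. The prefixes also take in 8 assembly factors of complex I, whose symbols start with NDUFAF, and *ATP5IF1*, the inhibitor of ATP synthase. *COX7A2L*, which is known as a factor for joining complexes III and IV, and *NDUFA4*, now usually counted with complex IV, were kept in the complexes that their symbols name. Another 11 probe sets with several gene symbols, one of which had such a prefix, were not used.

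Oxidative phosphorylation takes place in the inner mitochondrial membrane. Complex I takes electrons from NADH and passes them to ubiquinone, complex III passes them on to cytochrome c and complex IV to oxygen, and complex V (ATP synthase) uses the proton gradient built along the way to make ATP. Most subunits are encoded in the nucleus and are joined in the mitochondrion to a small set encoded by mitochondrial DNA. In the early mammalian embryo mitochondria are inherited from the oocyte, and respiration rises as the blastocyst forms.

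RNA was measured in bovine morulae of 4 groups, with 5 arrays per group and 20 arrays in all. Female embryos came from X-sorted sperm and male embryos from Y-sorted sperm, and sorting does not guarantee that every embryo of a pool has the labelled sex. From day 5 of development embryos received either recombinant human DKK1 at 100 ng/ml, a secreted antagonist of WNT signaling, or vehicle (buffered saline with albumin, termed control), and were harvested after 24 h. Each array held amplified cDNA from 1 pool of 20 morulae, compacted and non-compacted, so differences among arrays are differences among pools. Values are log2 intensities, in which a difference of 1 is a doubling of intensity. In a pool of whole embryos, fewer cells of a kind and less RNA per cell cannot be told apart.

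All 9 morula markers (including *POU5F1*, *NANOG* and *CDX2*) were among the 10000 probe sets with the highest mean, termed the tested set, and 0 of 11 cumulus and granulosa cell markers were. The mean over the cumulus and granulosa list was between 3.55 and 4.05 on every array. Of sperm markers 2 of 7 were in the tested set, and of oocyte markers 3 of 10, with a mean over the oocyte list between 4.73 and 5.85 on every array. The array labelled male control replicate 2 stood apart. Its *XIST*, the X inactivation transcript, had an intensity of 8.81, within the range of 8.42 to 10.03 of female arrays and above the 6.30 to 8.22 of the other male arrays. Its Y-linked *DDX3Y* was 4.82, within the female range of 2.65 to 5.43 and below the 6.29 to 8.36 of the other males. Its interquartile range over all probe sets was 2.83, against 3.11 to 3.35 on the other arrays. It was kept under its label, and results that rest on it are given with and without it.

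Most members were strongly expressed in the morula. Mean intensity over the 20 arrays was at or above the 90th percentile of all probe sets for 62 of the 83 members, and the median member mean was 10.16, whereas the median over all probe sets was 4.65. The tested set, whose lowest mean was 5.46 and whose median was 7.23, contained 78 members. The 5 members below it were *NDUFA4L2*, *NDUFAF7*, *COX4I2*, *COX7A1* and *COX8B*, so counts over tested members leave these out. Probe sets differ in how brightly they hybridise, so the level of one gene cannot be set against that of another, and the medians of complexes are descriptions of their probes.

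**Figure D1:**
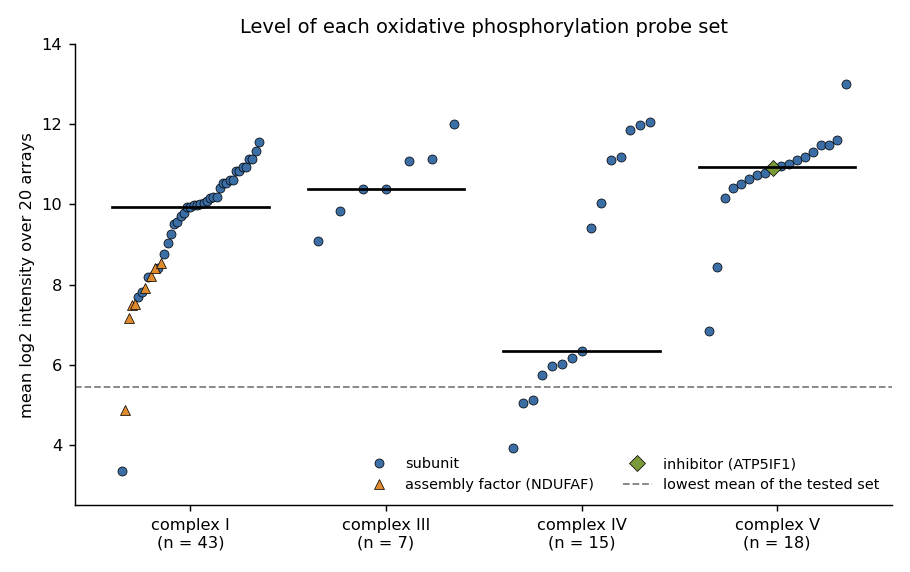
Mean log2 intensity over 20 arrays (y axis) of each of the 83 members, by complex and in rising order within each complex. Circles are subunits, triangles NDUFAF assembly factors and the diamond *ATP5IF1*. Black lines are medians (9.95, 10.39, 6.34 and 10.94 for complexes I, III, IV and V) and the dashed line is the lowest mean of the tested set, 5.46. Complex IV falls into a bright and a dim set of probe sets.

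By complex, the median member mean was 9.95 for complex I, 10.39 for complex III, 6.34 for complex IV and 10.94 for complex V. In complex V, 17 of 18 probe sets lay at or above the 90th percentile, as did all 7 of complex III, 31 of 43 in complex I and 7 of 15 in complex IV. The exception in complex V was a probe set of *ATP5F1E* (12717058), the epsilon subunit of the central stalk, with a mean of 6.84. The other probe set of that gene (12797415) had a mean of 11.49, so the probe sets of a single gene disagreed in level.

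Within complex V, the highest mean of all members belonged to *ATP5MG*, which encodes subunit g of the membrane part. It was between 12.91 and 13.11 on all 20 arrays, and its SD within groups was 0.0455. The catalytic F1 head (*ATP5F1A* and *ATP5F1B*) had means of 11.18 and 11.00. The 4 peripheral stalk genes had means between 10.52 and 11.32, and the inhibitor *ATP5IF1* had a mean of 10.91. The 3 genes for the identical mature c subunit of the rotor, *ATP5MC1*, *ATP5MC2* and *ATP5MC3*, were all bright, with means of 10.74, 11.11 and 10.40.

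Within complex I, 35 members are subunits and 30 of these lay at or above the 90th percentile, whereas 1 of the 8 assembly factors did. The median mean was 10.03 for subunits and 7.72 for assembly factors. The 6 core subunits measured, which carry the flavin and iron-sulfur clusters or their binding modules, ranged from *NDUFV1* at 7.81, which holds the NADH-binding site, to *NDUFV2* at 10.60. In complex III the catalytic Rieske iron-sulfur protein *UQCRFS1* had a mean of 10.39, and the range of the 7 members ran from *UQCRC1* at 9.08 to *UQCR10* at 12.00.

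Complex IV members that encode alternative forms of a subunit differed in their place relative to the tested set. Apart from *COX7B*, the forms known from most tissues had high means, namely *COX4I1* 11.19, *COX6A1* 11.98, *COX7A2* 12.06 and *COX8A* 11.85. The forms known mainly from heart, skeletal muscle, lung or testis had means below the median of the tested set, 7.23. These were *COX4I2* 5.05, *COX6A2* 6.34, *COX6B2* 5.98, *COX7A1* 5.12, *COX7B2* 6.18 and *COX8B* 3.94. Of these *COX4I2*, *COX7A1* and *COX8B* lay below the tested set, and *COX6B2* had no counterpart among the members. A like split held for *NDUFA4* (11.55) and its hypoxia-linked relative *NDUFA4L2* (3.35). This split did not hold for *COX7B* (5.76) and *COX7B2* (6.18), which were both dim. *COX6C*, outside these pairs, was dim as well, with a mean of 6.01. Each bright form was bright on every array: *COX4I1* was between 11.02 and 11.36 and *COX7A2* between 11.77 and 12.21.

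Some dim forms were raised on single arrays. *COX7A1*, the heart and muscle form of subunit VIIa, was 7.86 on female control replicate 2 and 8.06 on male DKK1 replicate 4, and between 4.07 and 5.94 on the other 18 arrays. *COX6A2*, the heart and muscle form of subunit VIa, was also highest on female control replicate 2, at 8.35, with 5.73 to 7.27 elsewhere. *NDUFA4L2* was 5.85 on male control replicate 3 and between 2.75 and 4.42 elsewhere. These high arrays came from 3 groups, and in each case the other arrays of the same group were lower. Within-group SD was largest for *COX7A1* (1.08), followed by *COX7B2* (1.00) and *COX7B* (0.784). Unlike *COX7A1*, *COX7B2* and *COX7B* had low single arrays, such as 4.36 on male DKK1 replicate 3 and 4.74 on female control replicate 3, respectively.

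The median within-group SD was 0.27 over all 83 members, the dim forms above included, and 0.37 over the tested set. It was 0.25 over the 1429 probe sets of like level, that is with a mean between the 25th and 75th percentile of tested members. Members thus varied less than the tested set, but not less than probe sets of like level. By complex the median SD was 0.30 for I, 0.31 for III, 0.30 for IV and 0.21 for V.

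The level of each complex on each array was summarised as the median over its tested members. For complex I this median was 10.10, 9.74, 9.66, 10.09 and 10.13 in female control replicates 1 to 5, and 9.93, 9.96, 9.83, 9.77 and 10.12 in female DKK1. It was 9.98, 9.11, 10.06, 10.01 and 10.02 in male control and 10.19, 10.03, 9.80, 9.96 and 10.18 in male DKK1. Male control replicate 2 was the lowest of the 20 arrays, and without it the ranges of the 4 groups overlapped throughout. The other complexes had the same low array, except that for complex III the lowest array was female DKK1 replicate 2 (9.97), with female control replicate 3 (9.99) and male control replicate 2 (10.08) next.

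**Figure D2:**
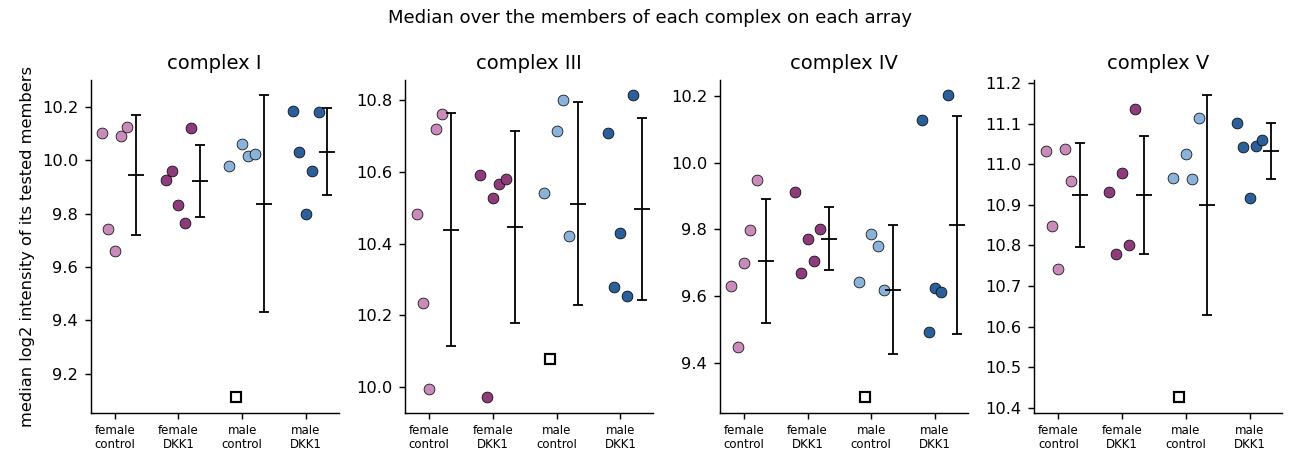
Median log2 intensity over the tested members of each complex (y axis, own scale in each panel) on each array, by group. Circles are arrays, the open square is male control replicate 2, and the bars to the right are the group mean and SD (n = 5). The open square lies at 9.11, 10.08, 9.30 and 10.43 for complexes I, III, IV and V, and is the lowest array for I, IV and V.

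On male control replicate 2 the median of complex I was 0.91 below the mean of the other 4 male control arrays, whose SD was 0.0336. The same difference was -0.54 for complex III, -0.40 for complex IV and -0.59 for complex V. It was -0.62 over all tested members, -0.30 over the tested set and -0.25 over probe sets of like level. Of the 78 tested members, 43 (55.1%) had their lowest value of all 20 arrays on this array, against 23.3% of the tested set and 35.5% of probe sets of like level. The share was similar in the 4 complexes: 23 of 41, 4 of 7, 6 of 12 and 10 of 18. The part of the narrower intensity range of this array in these values was not tested. Next in number was female control replicate 3, on which 13 members had their lowest value.

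The effect of DKK1 over both sexes was tested as the mean of the 10 DKK1 arrays minus that of the 10 control arrays. After Benjamini-Hochberg adjustment of limma's P values, 0 of 78 members and 0 of 10000 probe sets had an adjusted P under 0.05 (0%). At an unadjusted P under 0.05, 1 member differed and was higher with DKK1, against 3.6% of the tested set (2.35% higher). This was *NDUFV3*, a small accessory subunit next to the NADH-binding site of complex I.

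*NDUFV3* had intensities of 9.34, 9.34, 8.72, 9.63 and 9.81 in female control and 9.64, 9.50, 9.60, 9.69 and 9.66 in female DKK1. In males it was 9.46, 8.88, 9.45, 9.36 and 9.57 in control and 9.96, 9.78, 9.58, 9.84 and 9.51 in DKK1. All 10 DKK1 arrays were above the mean of the control arrays, 9.35, but the groups overlapped, with female control replicates 4 and 5 and male control replicate 5 within the range of the DKK1 values. The difference was 0.32 (SE 0.123, unadjusted P = 0.0174, adjusted P = 1 from limma). Without male control replicate 2 it was 0.26 (SE 0.115).

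The complexes differed from one another by less than the spread of their own members in this comparison. The median DKK1 minus control difference was 0.06 for each of complexes I, III and IV and 0.04 for complex V, and single members ranged from -0.29 to 0.33. It was above 0 for 60 of 78 members, with a median of 0.06, against 58.5% of the tested set with a median of 0.03. Probe sets of like level were above 0 in 67.8%, with a median of 0.04. When each array was centred on its own median, 46 of 78 members were above 0 with a median of 0.02, and without male control replicate 2 there were 42 of 78 with a median of 0.01, and the median of complex V turned to -0.01. The lowest members were *NDUFAF8* at -0.29, *NDUFS6* at -0.24 and *NDUFAF5* at -0.23, and the highest were *COX7B2* at 0.33 and *NDUFV3*.

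In female embryos, DKK1 minus control differences centred near 0 in all 4 complexes. The medians were -0.03 for complex I, -0.02 for complex III, 0.01 for complex IV and -0.02 for complex V, and 32 of 78 members were above 0, against 53.6% of the tested set. No member passed the adjusted P (0 of 10000 probe sets, 0%), and 2 had an unadjusted P under 0.05, both lower with DKK1, against 4.12% of the tested set (1.62% lower). They were *NDUFAF8*, an assembly factor of complex I, and *NDUFA3*, an accessory subunit of the membrane arm of complex I.

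In male embryos the medians were 0.17 for complex I, 0.09 for complex III, 0.21 for complex IV and 0.10 for complex V, and 64 of 78 members were above 0, against 56.8% of the tested set and 61.9% of probe sets of like level. The median over all members was 0.16, and over the tested set 0.04. When each array was centred on its own median, the medians were 0.11, 0.03, 0.15 and 0.04 for complexes I, III, IV and V, and 55 of 78 members were above 0, with a median of -0.02 over the tested set. No member passed the adjusted P (0 of 10000 probe sets, 0%), and 5 had an unadjusted P under 0.05, all higher with DKK1, against 4.27% of the tested set (2.96% higher). The 5 were *NDUFAF4*, *COX7A2L*, *NDUFA3*, *NDUFV3* and *COX6C*. Both values moved with male control replicate 2. Without it the medians were 0.06, 0.06, 0.09 and 0.02 for complexes I, III, IV and V, 52 of 78 members were above 0 (tested set 50.1%), and only *NDUFAF4* had an unadjusted P under 0.05 (3.27% of the tested set, 1.7% higher).

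**Figure D3:**
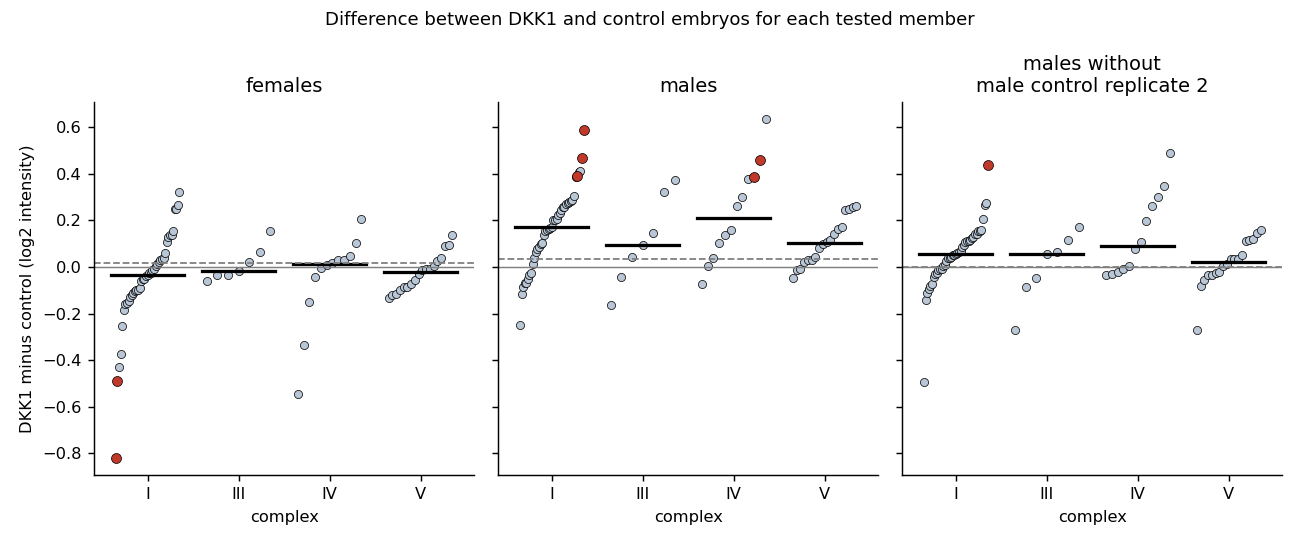
DKK1 minus control difference in log2 intensity (y axis) of each of the 78 tested members, by complex and in rising order, in females, in males, and in males without male control replicate 2. Black bars are medians, the dashed line is the median over the tested set, and red points have an unadjusted P under 0.05, of which there are 2, 5 and 1. The shift of the male medians above the dashed line is smaller without that array.

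The DKK1 x sex interaction was estimated by subtracting the DKK1 effect of male embryos from that of female embryos. It was above 0 for 13 of 78 members, with a median of -0.17, against 47.2% of the tested set with a median of -0.02. The medians by complex, with all arrays, were -0.20, -0.08, -0.13 and -0.11 for I, III, IV and V. Without male control replicate 2 the estimate was above 0 for 22 of 78, with a median of -0.08, against 52.4% and 0.02 for the tested set, and the medians by complex were -0.08, -0.05, -0.10 and -0.05. No member passed the adjusted P (0 of 10000 probe sets, 0%), and 3 had an unadjusted P under 0.05, against 4.6% of the tested set (2.62% lower). All 3 belong to complex I and had a negative estimate.

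*NDUFA3* had intensities of 11.31, 11.40, 11.04, 11.01 and 11.18 in female control and 11.10, 10.78, 10.40, 10.30 and 10.91 in female DKK1. In males it was 10.95, 9.89, 10.48, 11.14 and 11.02 in control and 11.32, 11.29, 11.18, 11.04 and 10.99 in DKK1. The female groups overlapped through 1 DKK1 array, replicate 1, and the lowest value of the 20 was male control replicate 2. The interaction estimate was -0.96 (SE 0.293, unadjusted P = 0.0039, adjusted P = 0.972 from limma), from differences of -0.49 in females (SE 0.207) and 0.47 in males (SE 0.207). Without male control replicate 2 it was -0.76 (SE 0.235, adjusted P = 0.997 from limma).

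*NDUFAF4*, a factor needed early in complex I assembly, was 8.54, 9.18, 8.36, 8.40 and 8.47 in female control and 8.63, 8.31, 8.39, 8.12 and 8.58 in female DKK1. In males it was 8.42, 7.68, 8.54, 8.26 and 8.56 in control and 8.40, 9.14, 9.22, 8.75 and 8.91 in DKK1. In males 4 of 5 DKK1 arrays were above all control arrays, and in females the groups overlapped, with female control replicate 2 alone above the rest. The difference in males was 0.59 (SE 0.199, adjusted P = 0.988 from limma) and 0.44 without male control replicate 2. The interaction estimate was -0.77 (SE 0.282).

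*NDUFAF8*, a partner of the assembly factor NDUFAF5, was 8.46, 9.05, 7.70, 7.99 and 8.22 in female control and 7.54, 6.94, 6.88, 7.37 and 8.59 in female DKK1. In males it was 7.80, 7.44, 7.43, 8.35 and 8.18 in control and 8.13, 7.44, 8.17, 8.13 and 8.55 in DKK1. In females 4 of the DKK1 arrays lay below all control arrays, and female DKK1 replicate 5 lay above 4 of them. The difference in females was -0.82 (SE 0.31, adjusted P = 0.999 from limma), and the interaction estimate was -1.06 (SE 0.439). *NDUFAF5*, which modifies a core subunit during assembly, had a difference of -0.43 in females (SE 0.21, unadjusted P = 0.0544 and adjusted P = 0.999 from limma) and -0.04 in males.

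The assembly factors did not share a direction. In females the 7 tested ones ranged from -0.82 to 0.32, the highest being *NDUFAF2* at 0.32, and in males from -0.25 for the same gene to 0.59 for *NDUFAF4*. The medians were -0.03 in females and 0.23 in males, and -0.03 and 0.17 for the 34 tested subunits of complex I. Without male control replicate 2 the male medians were 0.11 for the assembly factors and 0.05 for these subunits.

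In complex IV the members with an unadjusted P under 0.05 in males were *COX7A2L* and *COX6C*. *COX7A2L* was 10.10, 8.97, 9.80, 10.17 and 9.80 in male control and 10.63, 9.96, 10.37, 10.12 and 10.06 in male DKK1. The male control value of 8.97 is replicate 2, and the groups overlapped. The difference was 0.46 (SE 0.191) with all arrays and 0.26 (SE 0.149) without that array. In females it was 0.03.

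*COX6C*, a small accessory subunit of complex IV, was 5.66, 5.66, 5.72, 6.14 and 5.88 in male control and 6.20, 6.03, 6.11, 6.41 and 6.25 in male DKK1. Only male control replicate 4 reached the range of the DKK1 arrays. The difference was 0.39 in males (SE 0.182, adjusted P = 0.988 from limma) and -0.15 in females, where the DKK1 arrays were spread from 5.29 to 6.51.

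**Figure D4:**
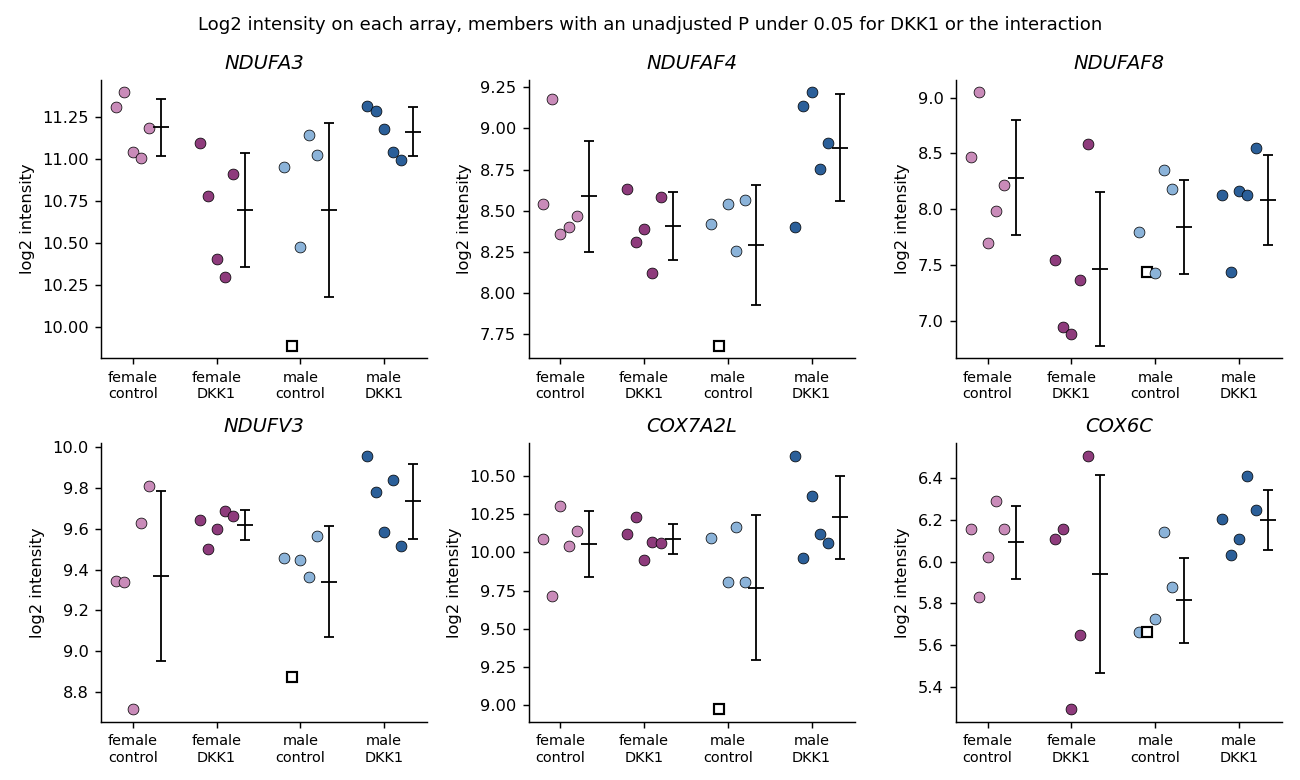
Log2 intensity (y axis, own scale in each panel) on each array of the 6 members with an unadjusted P under 0.05 for DKK1, for DKK1 within a sex or for the interaction. Circles are arrays, the open square is male control replicate 2 and the bars are the group mean and SD (n = 5). The groups overlap in every panel, and the open square is the lowest of the 20 arrays for *NDUFA3*, *NDUFAF4* and *COX7A2L*.

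Complexes III and V held no member with an unadjusted P under 0.05 in any comparison. They have 7 and 18 tested members, and 3.6% to 6.38% of the tested set had such a P in single comparisons. Few would thus be expected in any one comparison, and whether these complexes differ from I and IV in this was not tested. In complex V the DKK1 differences with all arrays ran from -0.05 to 0.26 in males and from -0.13 to 0.14 in females. Its smallest P for DKK1 belonged to *ATP5MF*, subunit f of the membrane part, with a difference of 0.20 (SE 0.109, unadjusted P = 0.0856 from limma). In complex III the male differences with all arrays ran from -0.16 for *UQCRFS1* to 0.37 for *UQCRQ*, an accessory subunit. *UQCRQ* was 8.86 on male control replicate 2 and between 9.74 and 9.96 on the other male control arrays. With each array left out in turn, the male difference of *UQCRFS1* ran from -0.27 to -0.03. The group means of *ATP5MG* lay between 12.98 and 13.03.

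For sex, the mean of the 10 female arrays minus that of the 10 male arrays centred on 0 in all 4 complexes. The medians were 0.00 (complex I), -0.01 (III), 0.02 (IV) and -0.02 (V), and 35 of 78 members were above 0, against 47.8% of the tested set. Without male control replicate 2 the medians were -0.05, -0.08, -0.03 and -0.05, and 18 of 78 were above 0, against 41.6% of the tested set and 34.8% of probe sets of like level. No member passed the adjusted P, against 7 of 10000 probe sets (0.07%), which included *XIST* and *DDX3Y*. At an unadjusted P under 0.05, 1 member differed and was higher in females, against 6.38% of the tested set (3.71% higher). This was *NDUFB11*.

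*NDUFB11* encodes an accessory subunit in the membrane arm of complex I and lies on the X chromosome in the gene table of the cattle assembly ARS-UCD2.0. It was 10.77, 10.49, 10.50, 10.78 and 10.61 in female control, 10.73, 10.64, 10.79, 10.75 and 10.89 in female DKK1, 10.46, 10.56, 10.30, 10.32 and 10.38 in male control, and 10.33, 10.34, 10.36, 10.15 and 10.60 in male DKK1. Of the female arrays, 8 of 10 lay above every male array, and all 10 lay above the male mean of 10.38. The lowest female arrays, female control replicates 2 and 3, overlapped with male control replicate 2 and male DKK1 replicate 5. The difference was 0.32 (SE 0.0778, unadjusted P = 0.000667, adjusted P = 0.133 from limma). Without male control replicate 2 it was 0.33 (SE 0.0751, adjusted P = 0.0702 from limma), in a fit in which 0.35% of the tested set passed the adjusted P. Over all settings the adjusted P from limma fits lay between 0.0285 and 0.242, and it was under 0.05 for the unmoderated linear model, for a robust prior with an intensity trend and for array weights. Those fits called more probe sets in general, 0.24%, 0.28% and 0.43% of the tested set, against 0.07% in the main fit.

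The other X-linked member, *COX7B*, encodes an accessory subunit of complex IV. It was 6.65, 6.54, 4.74, 6.61 and 6.58 in female control and 5.80, 4.82, 6.54, 5.53 and 6.76 in female DKK1. In males it was 5.82, 4.59, 5.57, 5.53 and 5.16 in control and 6.53, 5.69, 3.98, 5.80 and 5.98 in DKK1. Female arrays ranged from 4.74 to 6.76 and male arrays from 3.98 to 6.53, with low single arrays in both sexes. The difference of 0.59 was larger than that of *NDUFB11*, but its SE was 0.325 (unadjusted P = 0.085, adjusted P = 0.908 from limma). The other 81 members lie on autosomes, and the smallest P among these belonged to *NDUFAF5* (-0.27, SE 0.148, unadjusted P = 0.0794 from limma).

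**Figure D5:**
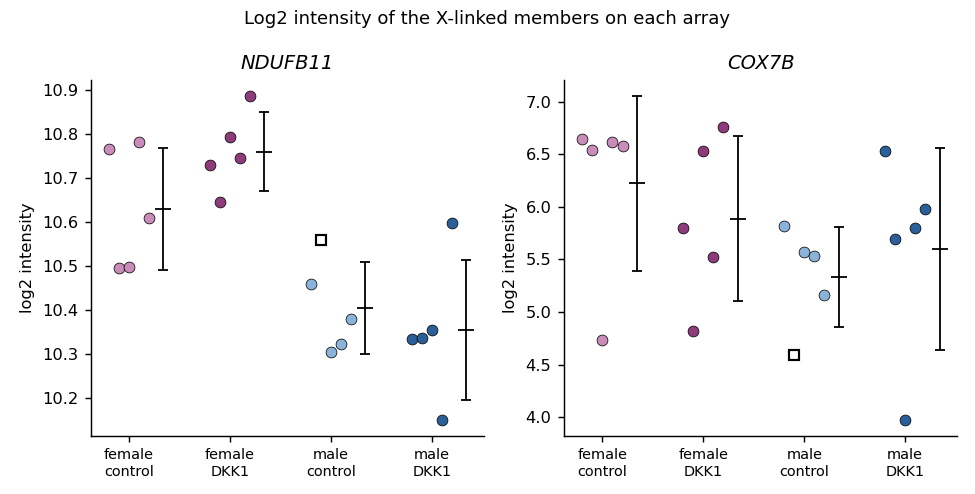
Log2 intensity (y axis, own scale in each panel) of the X-linked members *NDUFB11* and *COX7B* on each array, by group. Circles are arrays, the open square is male control replicate 2 and the bars are the group mean and SD (n = 5). For *NDUFB11*, 8 of 10 female arrays lie above every male array, and for *COX7B* the sexes overlap widely.

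Genes that act with the members were examined from fixed lists, and none passed the adjusted P from limma. Those named below had an unadjusted P under 0.05, as did 3.6% (DKK1) to 6.38% (sex) of the tested set in single comparisons. Lists of this size, taken over 5 comparisons, thus yield some such genes in any case. Of complex II, 3 subunits were measured (means 7.78 to 10.21), and *SDHA*, its flavoprotein, had a DKK1 minus control difference of 0.43 in males (SE 0.185, unadjusted P = 0.0321). Without male control replicate 2 no complex II gene had an unadjusted P under 0.05. Of 7 tested assembly factors of complex I with other names, *TIMMDC1* was 0.60 higher with DKK1 (SE 0.218, unadjusted P = 0.013). Of 5 tested assembly factors of complex III, *UQCC1* had a DKK1 minus control difference of 1.01 in males (SE 0.309, unadjusted P = 0.00409), and an interaction estimate of -1.22. Without male control replicate 2 these were 0.70 (SE 0.26, unadjusted P = 0.0143 from limma) and -0.92 (SE 0.357).

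Of 18 tested assembly factors of complex IV, *COX10*, which makes heme O on the way to heme A, was lower with DKK1 at the unadjusted P (-0.31, SE 0.145), and *COX18*, which inserts a subunit into the membrane, was higher in females (0.39, SE 0.164). Both lost that P without male control replicate 2, where *COX10* was at -0.32 (SE 0.151, unadjusted P = 0.0506 from limma) and *COX18* at 0.33 (SE 0.161, unadjusted P = 0.0552 from limma). *COA7*, a heme-binding assembly factor, had an interaction estimate of -1.10 (SE 0.451), and of -1.01 without that array (SE 0.469, unadjusted P = 0.045 from limma). Of 3 tested genes for assembly and regulation of complex V, 0 had an unadjusted P under 0.05. Of 12 tested genes for electron carriers and coenzyme Q synthesis, 0 had an unadjusted P under 0.05 in any comparison. Among 16 tested probe sets for mitochondrial biogenesis and expression of mitochondrial DNA, *TFAM*, which packages mitochondrial DNA, had an interaction estimate of 0.48 (SE 0.202), and *TFB1M*, which methylates mitochondrial ribosomal RNA, one of -0.78 (SE 0.322). That of *TFB1M* without male control replicate 2 was -0.61 (SE 0.298, unadjusted P = 0.0547 from limma), and that of *TFAM* 0.48 (SE 0.207, unadjusted P = 0.0341 from limma). Subunits encoded by mitochondrial DNA were not analysed here.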

How the data were processed

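Bovine morulae (4 groups, 5 pools of 20 embryos each) were measured on Affymetrix Bovine Gene 1.0 ST arrays, 1 array per pool, after amplification of the RNA. The deposited values are log2 intensities per probe set, computed by the authors by RMA (background correction, quantile normalization and log2) in Affymetrix Expression Console. Program versions are not given in the sources used here. These values were used without further scaling. The number of arrays limits their precision.

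Groups came from the sex and treatment on the labels. Replicates are separate pools, so P values measure the spread between pools. The array annotation gave gene symbols, and the gene table of ARS-UCD2.0 gave chromosomes. The methods' criterion for expressed transcripts needs negative control probes, which were not used here, so the 10000 probe sets with the highest mean were tested. Differences were fitted in R 4.3.3 with limma 3.58.1 (cell means of the 4 groups, moderated variances, no replicate term) in 5 comparisons, and P values were adjusted over the 10000 probe sets by the Benjamini-Hochberg method. Tables and plots were made with Python 3.11.15, NumPy 2.4.6, pandas 2.3.3 and matplotlib 3.10.9.

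Members were named where they had a P under 0.05 or were among the 3 smallest P values in a direction of any comparison, were X-linked, belonged to a set of alternative forms, or had the highest or lowest mean of a complex. Other members named serve as examples of a role and were chosen after their values were seen. The members and the gene lists were chosen with earlier results of these data known. The alternatives comprised replicate blocks (fixed or random), other variance models, array weights, other expression thresholds, 2 other scalings, 1 probe set per symbol, leaving out each array, leaving out assembly factors and the inhibitor, and moving *NDUFA4* to complex IV. In simulated data of this design, 25%, 85.5% and 98.5% of 200 probe sets with a true DKK1 difference of 0.5, 1 and 2 were called at the adjusted P, and 0%, 23.5% and 85.5% with such an interaction. The simulated noise was independent for each probe set and array, with no array lying apart as male control replicate 2 does.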

Additional observations from a re-analysis of the deposited data

Results flagged for a closer look

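Among 168 groups of 5 arrays tested (5 medians and 37 named members in 4 groups), 17 (10.1%) had an array that lay apart from the others by Dixon's criterion. Chance flags about 1 in 20 groups. In 9 of the 17 it was the low array male control replicate 2: the medians of complex I (9.11), complex V (10.43) and all members (9.68), and *UQCR10* (11.58), *COX5A* (10.80), *COX8A* (11.08), *ATP5MC2* (10.48), *ATP5MC3* (9.75) and *ATP5MF* (10.27). *COX8A* was between 11.91 and 11.95 on the other 4 male control arrays. Male DKK1 replicate 3 was low in *ATP5MF* (10.57) and *COX7B2* (4.36, others 6.87 to 7.12). Female control replicate 3 was low in *UQCRC1* (8.89, others 9.09 to 9.15) and in the X-linked *COX7B* (4.74, others 6.54 to 6.65), and female control replicate 2 was high in *NDUFAF4* (9.18). Female DKK1 replicate 4 was low in *COX7A2* (11.77) and *ATP5MG* (12.92), and female DKK1 replicate 2 was low in the median of complex III (9.97, others 10.53 to 10.59).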

How the results depend on the processing

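No difference named for its P changed sign under any alternative. These differences were picked for a small P in the same data, and several alternatives leave the difference itself unchanged. Unchanged signs therefore cannot show that a difference is stable. The medians of differences moved by less than 1 SD of the array medians. That SD was 0.17 to 0.28 and each median was smaller than its SD, so this cannot show that a median is stable. With each array left out in turn, the male median of complex I ran from 0.06 to 0.23. The DKK1 median of complex V over both sexes ran from -0.01 to 0.06. With array weights the DKK1 medians of complexes I and V were both -0.01, and those in males 0.08, 0.07, 0.12 and 0.02 for I, III, IV and V. The counts of members with an unadjusted P under 0.05 are small and moved most. For the interaction, 3 members became 5 with a fixed or random replicate block, with the unmoderated linear model and with no expression threshold, and 1 without assembly factors and the inhibitor. For DKK1 in females, 2 became 1 without them. For DKK1 in males, 5 became 1 with array weights. For sex, 1 became 2 with array weights. The count at the adjusted P, 0, became 1 (*NDUFB11*) with the unmoderated linear model (adjusted P = 0.0285), a robust prior with an intensity trend (0.0408) and array weights (0.038, all from limma or the same model). In these fits 0.24%, 0.28% and 0.43% of the tested set passed the adjusted P for sex, against 0.07% in the main fit. Shares of the tested set for the moved counts at the unadjusted P are not given here.

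When each array was left out in turn, the counts at the unadjusted P ranged from 1 to 3 for DKK1, from 1 to 3 for sex, from 2 to 6 for the interaction (the highest without female control replicate 3 in all 3 comparisons), from 0 to 4 for DKK1 in females (0 without female control replicate 2 or female DKK1 replicate 3, 4 without female control replicate 3) and from 1 to 6 for DKK1 in males (1 without male control replicate 2 or male DKK1 replicate 1). No member passed the adjusted P without any single array.

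Replicate numbers are shared across groups. Correlations between same-numbered arrays ran from -0.18 to 0.13 over 30 pairs, 2 of them above 0.1. Their median was 0.02, against -0.001 between arrays with other numbers. The best match of 12 of 20 arrays had the same number, and how many would match by chance was not tested. The paper describes harvest in replicates, with the same bulls giving both kinds of sorted sperm within a procedure. It lists a random replicate effect for embryo development and none for the arrays. Whether the numbers on the labels stand for those harvests was not tested. With the replicate block the interaction count was 5 and the adjusted P of *NDUFB11* was 0.198 (limma).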
